A study of Mus musculus with 9 samples.

Results

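The hippocampus of saline-treated C57BL6/J mice, an inbred laboratory strain, was described from the 3 sham libraries of a series of 9. These 3 libraries were chosen by their label alone: their mice received saline. The series sequenced polyadenylated RNA from postmortem hippocampus in 3 groups of 3 libraries and was designed around doxorubicin, a chemotherapy drug, given alone or with MitoQ, a mitochondrial antioxidant. The drug-treated libraries were not used here, so every value below belongs to saline-treated tissue. All 3 sham libraries share the strain, the tissue, a Trizol and spin column extraction and a TruSeq library kit. The series title calls the mice young. Sex, exact age and the time from injection to dissection were not given in the labels of these samples, and the labels do not say that each library came from its own mouse. The spread given below is therefore the spread between 3 samples, which may be technical in part.

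The hippocampus is a forebrain structure that the brain needs to form memories of places and events. Its main excitatory cells are the granule cells of the dentate gyrus and the pyramidal cells of the fields CA3, CA2 and CA1, linked in a chain of glutamate synapses and held in check by GABAergic interneurons. Calcium that enters through glutamate receptors binds calmodulin, which activates the kinase CaMKII and the phosphatase calcineurin, the opposing enzymes of synaptic plasticity. Astrocytes clear the released glutamate, oligodendrocytes wrap axons in myelin, and microglia are the resident immune cells. The choroid plexus, an epithelium in the ventricle beside the hippocampus, makes cerebrospinal fluid and can be taken along when the tissue is dissected.

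The deposited values were whole-number read counts per gene symbol. The libraries held 25.6, 35 and 24.7 M counts (M, mega) in sham replicates 1, 2 and 3, so that 3 counts were worth 0.117, 0.0858 and 0.122 CPM, counts per 1000000. Where 3 values are listed below, they stand for replicates 1, 2 and 3 in that order, and errors are the SD of these 3 libraries. CPM is a share of all counts and grows with transcript length. Levels of different genes are therefore compared in TPM (transcripts per 1000000, counts per exonic base scaled to the same total). A count was found for 17670, 17885 and 17502 of 24421 table entries. The table held 0 of the 15 genes of the mitochondrial genome that were looked for, which in brain are among the most abundant transcripts, so all shares refer to nuclear genes.

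Sham replicate 2 stood apart from the other libraries. Its log2 CPM correlated with replicates 1 and 3 at Pearson's r of 0.9896 and 0.9879, against 0.9948 between replicates 1 and 3, over 13911 entries with a mean of at least 1 CPM. The 20 choroid plexus genes of the marker list took 0.0325%, 0.746% and 0.0309% of counts, and 20 of 20 were highest in replicate 2, where 40.1% of all entries of at least 1 CPM were highest. Of the markers used to define that tissue, Ttr had 42.1, 4745 and 56.0 CPM and Folr1 0.898, 24.2 and 0.851 CPM, so neither was at 0 in any library. Results that rest on replicate 2 are given with and without it.

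Hippocampal identity was visible in the defining markers. Slc17a7, the vesicular glutamate transporter of forebrain excitatory neurons, had 1659, 1422 and 1638 CPM. Slc17a6, its counterpart in thalamus, had 22.1, 27.3 and 20.6 CPM. The granule cell markers Prox1, a transcription factor, and C1ql2, a secreted synaptic protein, averaged 40.8 ± 2.78 and 350.1 ± 18.7 TPM. The CA1 markers Wfs1 and Fibcd1 averaged 228.4 ± 28.5 and 193.9 ± 10.8 TPM, and Cpne4 and Rgs14, markers of CA3 and CA2, 89.1 ± 10.5 and 115.1 ± 13.8 TPM. Of 23 genes on a list for other organs, 2 reached a mean of 1 CPM. They were the keratin gene Krt5 at 1.18 CPM and Tph2 at 1.10 CPM, which marks serotonin neurons of the brain rather than another organ.

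Of 47 entries on the mouse Y chromosome, 4 reached a mean of 1 CPM, the highest being Ddx3y with 54.9, 63.8 and 48.3 CPM. Xist, the RNA that coats the inactive X chromosome, had 0, 1 and 0 counts. None of the 3 libraries differed from the others in this. Nnt, a mitochondrial transhydrogenase whose gene carries a known internal deletion in this strain, had 20.2, 22.6 and 20.8 CPM, but 47.4% of its exonic bases are shared with a second gene model of the same symbol.

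Counts were spread over many genes rather than held by a few. The highest entry took 0.595% of all counts on average, the 10 highest 3.41%, the 100 highest 15.9 ± 0.11% and the 1000 highest 48.8%. To reach 50% of counts, 1028, 1087 and 1057 entries were needed, and to reach 90%, 5969, 6125 and 6011. In all 3 libraries 13569 entries reached 1 CPM. The 82 entries with a mean of at least 1000 CPM held 14.2% of counts, the 2266 entries between 100 and 1000 CPM 53.7%, and the 7735 entries between 10 and 100 CPM 30.2%. The lists of the 100 highest entries shared 92 entries across the 3 libraries.

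Camk2a, the alpha subunit of CaMKII and the main protein kinase of the postsynaptic density, had the highest count of any gene. It had 6280, 5413 and 6161 CPM and lies on chromosome 18 of GRCm38 (mm10), chr18:60925618-60988152, plus strand. Its lowest library was above every library of every other gene, the 4745 CPM of Ttr in replicate 2 included. Slc1a2 (chr2:102658659-102790784, plus strand), the astrocyte transporter that removes most synaptic glutamate, followed with 3963, 3691 and 3328 CPM. Kif5a, a kinesin that carries cargo along axons, had 3358, 3301 and 3493 CPM.

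From the second to the tenth place the order was not fixed. The genes named here from those places each overlapped the next in the range of their 3 libraries: Slc1a2, Kif5a, the neuronal protein neurochondrin (Ncdn), myelin basic protein (Mbp), the dendritic protein dendrin (Ddn), the iron store Fth1 and the peptide-processing enzyme Cpe. Mbp had 3257, 3217 and 2810 CPM and was lowest in replicate 3. Ranks 11 to 23 ran from Ppp3ca, the catalytic subunit of calcineurin, at 2525 ± 88.3 CPM to Atp1b1, the beta subunit of the sodium pump, at 1893 ± 21.2 CPM. They held the release proteins Snap25 (2449 ± 95.0 CPM) and Cplx2 (2263 ± 97.3 CPM), the astrocyte products Apoe (2124 ± 113.2 CPM) and Sparcl1 (2005 ± 97.9 CPM), and the glycolytic enzyme Aldoa (2108 ± 65.2 CPM).

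**Figure D1:**
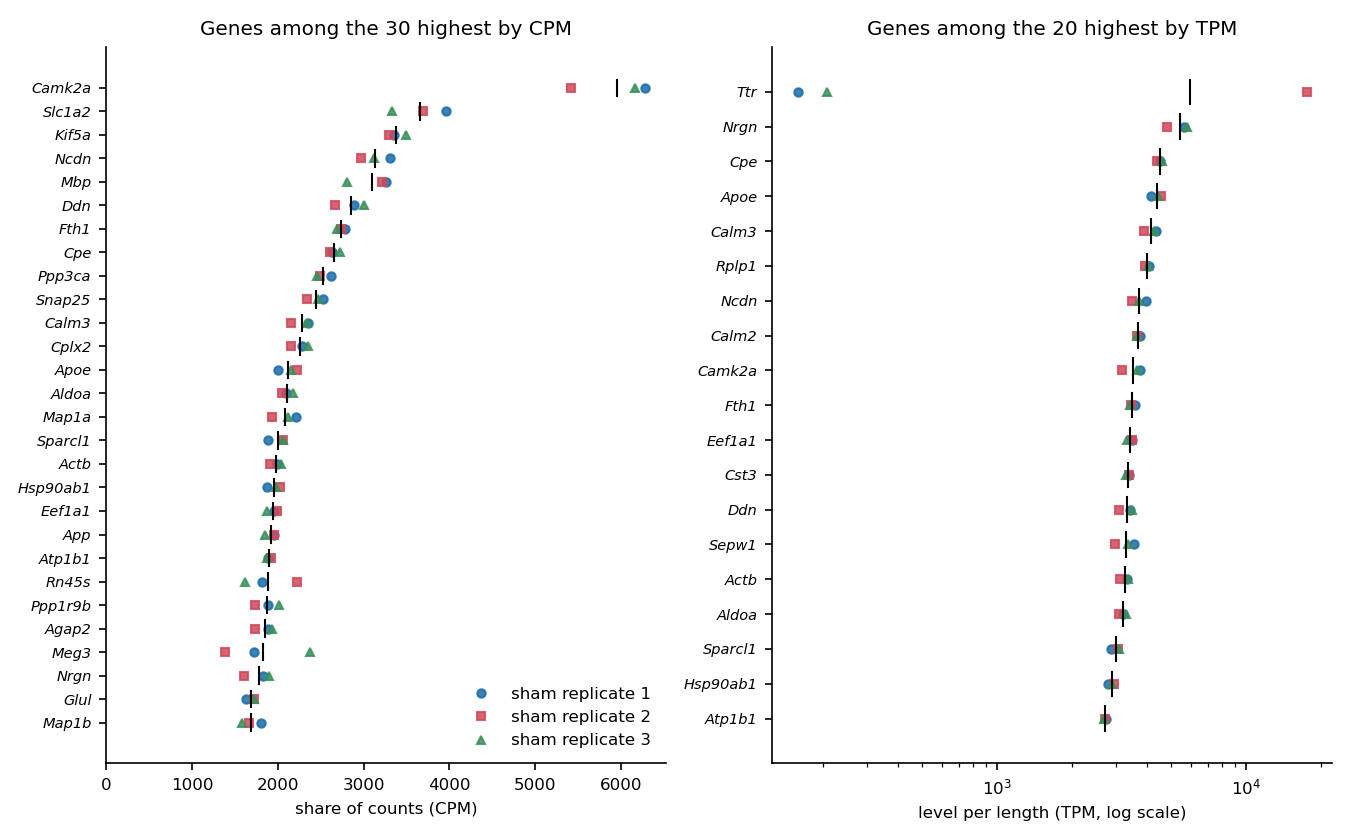
The left panel plots the share of counts (CPM, linear axis) of genes among the 30 highest and the right panel the level per length (TPM, log axis) of genes among the 20 highest, with a symbol for each of the 3 sham libraries and a vertical bar at their mean. Camk2a stands alone at 5413 to 6280 CPM, most others differ little between libraries, and Ttr is high in sham replicate 2 only, with a mean that no library holds.

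Per length, the order changed. Of the 100 highest genes by CPM, 56 were also among the 100 highest by TPM. The longest transcripts of the 100 highest by CPM had a median of 4034 bases, against 2186 bases for the 100 highest by TPM and 3498 bases for all genes of at least 1 CPM. Coding lengths followed the same order, with medians of 1563, 894 and 1446 bases. Leaving Ttr aside, the highest level belonged to Nrgn (chr9:37544492-37552904, minus strand), neurogranin, a small postsynaptic protein that binds calmodulin at low calcium, at 5386 ± 512 TPM. Cpe followed at 4479 ± 110 TPM, Apoe, the lipid carrier of astrocytes, at 4364 ± 187.4 TPM, Calm3 at 4142 ± 238.3 TPM and the ribosomal stalk protein gene Rplp1 at 3997 ± 81.6 TPM. Camk2a was ninth by this measure with Ttr counted, at 3506 ± 307.6 TPM.

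Ttr, transthyretin, the thyroid hormone carrier made by choroid plexus, had the highest mean of all, 5928 ± 9952 TPM, with an SD above its mean. This mean rested on replicate 2. Without that library its level was 49.05 CPM, against 1614 CPM with it.

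Calmodulin and its kinases took 1.73%, 1.58% and 1.72% of counts with 13 genes, and all 13 reached a mean of 1 CPM. The calmodulin genes encode the same protein. Calm3 stood at 4142 ± 238.3 TPM and Calm2 at 3666 ± 63.1 TPM. Calm2 had 1234, 1226 and 1212 CPM, a spread of 0.909% of its mean. Of the CaMKII subunits, Camk2b stood at 804.1 ± 74.8 TPM, Camk2g at 151.3 ± 5.22 TPM and Camk2d at 10.6 ± 2.89 TPM, all below Camk2a. With the longest transcript as length in place of all exons, Camk2b stood at 1353 TPM and Camk2d at 32.8 TPM. Camk2n1, an inhibitor of the kinase, reached 830.8 ± 42.4 TPM. The median over the 13 genes was 804 TPM, against 13.5 TPM over all entries with a count.

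Other neuronal calcium-binding proteins took 0.972%, 0.884% and 0.963% of counts. Besides Nrgn and Ncdn (3710 ± 240.1 TPM), they held hippocalcin, a calcium sensor named after this tissue: Hpca had 1763, 1418 and 1796 CPM. Hpca, Nrgn and Ncdn were lowest in replicate 2, and they were the 3 of 13 members for which this held. Of the others, 6 were lowest in replicate 1 and 4 in replicate 3. Of all entries of at least 1 CPM, 35.1%, 30.1% and 34.9% were lowest in replicates 1, 2 and 3, so these counts are not particular to the list. Calb1, the calcium buffer of granule cells, had 127.3, 160.5 and 134.8 CPM.

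To show the sequence at annotated starts of genes that rank high or vary, RefSeq promoter windows of GRCm38.p6 (from 250 bases before to 50 bases after the annotated start, shown 5′ to 3′ on the gene's strand) were read. Of the 100 highest genes by CPM, 66 had a window, which is too few for a statement on the set, so single windows are shown. The first pair belongs to the second-ranked gene by CPM and to the calmodulin gene with the highest TPM. The Slc1a2 window lies at an internal start, inside the gene as given above, so the pair does not compare outermost starts. Capitals mark CG pairs, of which the Slc1a2 window (chr2:102706188-102706487, plus strand) holds 1 and the Calm3 window (chr7:16923983-16924282, minus strand) 44. The median was 7 over all 32851 windows and 20 over the 13989 windows found for 10887 of the 13911 entries of at least 1 CPM.
Slc1a2: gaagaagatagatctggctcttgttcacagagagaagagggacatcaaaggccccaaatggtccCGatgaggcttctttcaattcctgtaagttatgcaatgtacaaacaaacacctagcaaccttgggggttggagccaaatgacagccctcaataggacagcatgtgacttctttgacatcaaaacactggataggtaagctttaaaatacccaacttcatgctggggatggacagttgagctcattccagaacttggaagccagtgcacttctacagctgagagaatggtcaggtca
Calm3: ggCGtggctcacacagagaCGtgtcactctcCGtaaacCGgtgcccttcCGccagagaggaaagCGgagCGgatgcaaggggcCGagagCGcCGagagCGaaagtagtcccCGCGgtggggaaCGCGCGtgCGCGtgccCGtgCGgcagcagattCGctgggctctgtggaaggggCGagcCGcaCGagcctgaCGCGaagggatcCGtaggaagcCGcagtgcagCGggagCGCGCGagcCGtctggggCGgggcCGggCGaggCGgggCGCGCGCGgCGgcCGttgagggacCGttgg
The next pair belongs to Meg3, the gene with the widest spread among the 30 highest, and to Fos, an activity-induced gene. Capitals mark TATAAA and TGACGTCA, both searched on both strands, with copies allowed to overlap. RefSeq gives a pair of windows for Meg3, and the one nearest the gene's first base is shown; the other (chr12:109545148-109545447, plus strand) holds neither motif. In the first window (chr12:109540746-109541045, plus strand) TATAAA begins 25 and, on the other strand, 29 bases before the start, and TGACGTCA 57 bases before it. In the Fos window (chr12:85473640-85473939, plus strand) TATAAA begins 33 bases before the start.
Meg3: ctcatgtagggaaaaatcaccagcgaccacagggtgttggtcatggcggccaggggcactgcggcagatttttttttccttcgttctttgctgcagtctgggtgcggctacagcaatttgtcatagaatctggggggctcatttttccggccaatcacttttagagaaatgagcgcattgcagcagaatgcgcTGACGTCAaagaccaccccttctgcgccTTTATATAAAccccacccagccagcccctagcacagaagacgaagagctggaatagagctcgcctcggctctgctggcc
Fos: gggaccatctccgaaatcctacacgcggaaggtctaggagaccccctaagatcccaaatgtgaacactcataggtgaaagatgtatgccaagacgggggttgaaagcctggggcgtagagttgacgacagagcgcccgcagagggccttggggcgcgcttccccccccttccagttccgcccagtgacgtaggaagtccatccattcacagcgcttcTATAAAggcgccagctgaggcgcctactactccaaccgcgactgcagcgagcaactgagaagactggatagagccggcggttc
Of all windows, 13.6% held TATAAA and 1.79% held TGACGTCA. A match is a description of the letters and was not tied to the counts.

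The machinery that releases transmitter took the largest share of counts of any list, 2.38%, 2.20% and 2.32% with 30 genes. This rank depends on transcript length and on which genes were listed. In mean TPM summed over members, the astrocyte (27620), nuclear oxidative phosphorylation (25570) and cytoskeleton (21010) lists stood above the presynaptic list (19570). The median presynaptic member stood at 477 TPM. Snap25, a core protein of the fusion complex, had 2533, 2346 and 2468 CPM, and Cplx2, a complexin that clamps this complex, had the list's highest level at 2018 ± 98.3 TPM. Dnm1, the dynamin that pinches off vesicles after release, averaged 1360 ± 96.1 TPM, the vesicle protein Vamp2 1341 ± 47.7 TPM and the calcium sensor Syt1 845.2 ± 48.8 TPM. Syn3, the least abundant of the synapsins listed, averaged 53.7 CPM. The median coefficient of variation (CV, the SD over the mean) of its members was 5.27%, against 7.66% over all entries of at least 1 CPM. The median member stood at 585 CPM, and entries of 100 to 1000 CPM had a median CV of 4.81%. The list was therefore not steadier than entries of that level.

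Postsynaptic scaffold and signalling genes took 1.84%, 1.69% and 1.81% of counts with 27 genes. Ddn had the highest level at 3317 ± 217.4 TPM. Ppp1r9b, spinophilin, had 1890, 1730 and 2019 CPM, and Dlg4, the scaffold PSD-95, 1017, 954.3 and 1058 CPM. Of the 27 genes, 19 were lowest in replicate 2, where 30.1% of all entries of at least 1 CPM were lowest. The same held for 21 of 30 presynaptic genes, with a median log2 difference from the 3-library mean of -0.07 in both lists. The choroid plexus share stood beside this at 0.746% in that library, and its part in the difference was not tested.

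Glutamate receptor subunits took 0.471%, 0.452% and 0.456% of counts with 22 genes. The AMPA receptor subunit Gria1 led at 984.8 ± 22.5 TPM, above Gria2 at 226.0 ± 5.02 TPM. Grin1, the obligatory subunit of NMDA receptors, averaged 311.9 ± 27.9 TPM, or 538.2 TPM with the longest transcript as length. Grin2b, an NMDA subunit, varied more, with 129.9, 98.5 and 69.3 CPM. Among 12 GABA-A receptor subunits, which form the chloride channels of inhibitory synapses, Gabra5 was highest per length at 317.9 ± 23.6 TPM. The median subunit stood at 45.9 TPM in the glutamate list and 73.3 TPM in the GABA-A list. Receptors for monoamines and acetylcholine were lower, with a median of 13.1 TPM over 30 genes, and the muscarinic receptor gene Chrm1 led them with 351.3, 293.7 and 329.3 CPM.

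Among receptors for steroid and thyroid hormones, Thra, the alpha receptor for thyroid hormone, led with 902.4, 862.1 and 920.7 CPM. Nr3c2, the mineralocorticoid receptor that is abundant in hippocampal neurons, averaged 108.5 ± 16.5 TPM. Nr3c1, the glucocorticoid receptor, averaged 58.5 ± 6.14 TPM. By library, Nr3c2 had 183.8, 157.3 and 138.0 CPM and Nr3c1 108.2, 108.3 and 90.1 CPM, and both were lowest in replicate 3.

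Inhibitory neurons were represented by 20 genes with 0.230%, 0.239% and 0.249% of counts. Gad1 and Gad2, the enzymes that make GABA, averaged 188.2 ± 7.48 and 125.6 ± 8.56 TPM, and Gad1 stood at 303.8 TPM with the longest transcript as length. The peptide somatostatin (Sst) was the list's highest gene per length at 1487 ± 197.9 TPM, with 214.1, 237.7 and 280.4 CPM, and the peptide Cck reached 1121 ± 64.7 TPM. In these bulk samples, fewer cells of a type and less RNA per cell cannot be told apart. Pcsk1n, a granin-like precursor of secretory neurons, led the peptide list by count once Ttr is left aside, with 707.0, 671.1 and 749.8 CPM.

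For the principal cell lists, the CV of the share over the 3 libraries was 7.7% for CA3 and CA2, 4.79% for CA1 and 3.57% for granule cells. Markers of CA3 and CA2 took 0.142%, 0.125% and 0.144% of counts, those of CA1 0.108%, 0.116% and 0.106%, and those of dentate granule cells 0.109%, 0.106% and 0.101%. In the CA3 and CA2 list, 63.3% of the counts came from Nptx1, a neuronal pentraxin, with 883.6, 756.8 and 959.0 CPM. Without it the list took 0.0533%, 0.0491% and 0.0482%, and replicate 3 rather than replicate 2 was lowest. The CV of 7.7% thus depends on this gene and is not a trait of the list as a whole. Mpped1 led the CA1 list at 275.1 ± 5.29 TPM. Markers of neighbouring regions were also found: 17 genes of neocortical layers took 0.0916%, 0.0978% and 0.0910% of counts and 15 genes of thalamus and habenula 0.0219%, 0.0231% and 0.0206%, several of which hippocampal neurons express too. Bcl11b, which granule cells share with deep cortical layers, led the neocortical list with 247.2, 222.4 and 239.0 CPM. Tcf7l2, a transcription factor of thalamus, averaged 3.89 ± 0.614 TPM, or 6.99 TPM with the longest transcript as length.

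Mki67, a marker of cycling cells, had 2.19, 2.38 and 2.27 CPM. Dcx, doublecortin of newborn neurons, had 19.9, 17.1 and 18 CPM. Both are in a neurogenesis list of 16 genes with a median of 13.8 TPM, close to the 13.5 TPM of all entries with a count.

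Astrocyte genes formed the second list by share, 2.01%, 2.06% and 2.05% of counts with 24 genes, and had the highest median of the cell type lists at 738 TPM. Besides Slc1a2, Cpe and Apoe, the list held Glul, the glutamine synthetase that recycles glutamate, with 1636, 1718 and 1729 CPM, and Cst3, cystatin C, at 3339 ± 44.8 TPM. Neurons or other glia also express Slc1a2, Cpe and Apoe in part, and other members may not be confined to astrocytes either. Gfap, the filament protein of reactive and resting hippocampal astrocytes, averaged 494.0 ± 26.7 TPM. Slc1a2 per length reached 1226 ± 115.0 TPM, over 13133 exonic bases. Of 24 members, 13 were lowest in replicate 1, where 35.1% of all entries of at least 1 CPM were lowest.

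Myelin genes took 0.831%, 1.02% and 0.701% of counts with 23 genes. Mbp averaged 1606 ± 133.8 TPM. Of the 23 members, 22 were lowest in replicate 3, against 34.9% of all entries of at least 1 CPM, and Cnp, a myelin enzyme, shows it with 388.1, 393.8 and 304.2 CPM. The member that was not lowest in replicate 3 was lowest in replicate 1. Enpp2, the enzyme autotaxin, stands on this list and on that of choroid plexus, and had 204.8, 1960 and 170.2 CPM. Without Enpp2, the list took 0.810%, 0.822% and 0.684% of counts, so that replicates 1 and 2 were close and replicate 3 stayed lowest.

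Microglial genes were among the steadiest of the cell type lists. They took 0.0783%, 0.0756% and 0.0780% of counts with 21 genes, a CV of the share of 1.93%. Csf1r, the growth factor receptor microglia need to survive, had 106.3, 105.1 and 112.9 CPM, and C1qa, a complement component, averaged 214.5 ± 13.2 TPM. Perivascular macrophage genes were far lower, with 7 of 11 at a mean of 1 CPM or more and Mrc1 at 3.32, 3.92 and 2.76 CPM. Ptprc (CD45), a marker of leukocytes in general, averaged 0.734 ± 0.202 TPM, or 1.78 TPM with the longest transcript as length.

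Endothelial genes took 0.0926%, 0.109% and 0.101% of counts, of which 44.7% came from Bsg (basigin), a gene that choroid plexus and other cells also express. Without Bsg the list took 0.0516%, 0.0571% and 0.0587%, so replicate 2 was still above replicate 1. Of 19 members, 13 were lowest in replicate 2, against 30.1% of all entries of at least 1 CPM, and 14 were highest in replicate 3, against 35.3%. Cldn5, the tight junction claudin of brain vessels, had 33.8, 22.1 and 35.3 CPM and was at least 1.5-fold below both other libraries in replicate 2, as were 3 other entries, Malat1, Fam214a and Rreb1 (0.0397% of 10083 entries of at least 10 CPM). The red cell genes Hba-a1 and Hbb-bs were listed at 0 in all 3 libraries, as were Rpl26 and Ndufs5, genes that every cell uses. No level can be read from these zeros. Alas2, the heme enzyme of red cell precursors, averaged 8.07 ± 2.49 TPM.

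**Figure D2:**
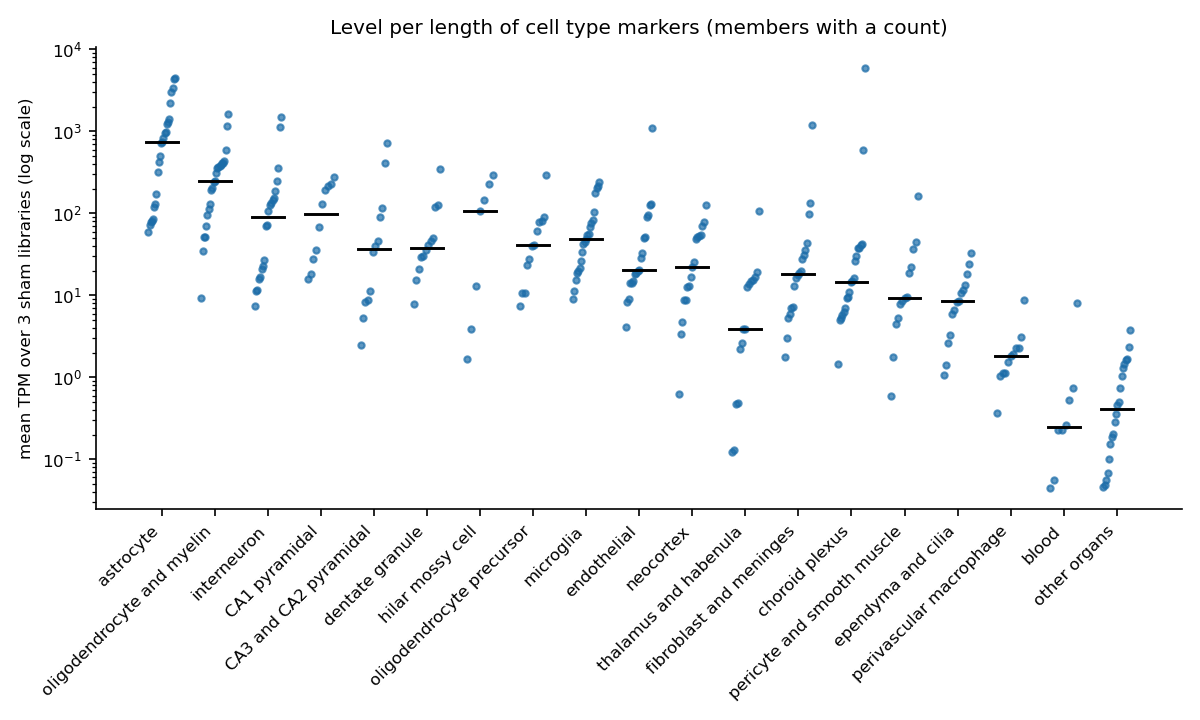
Each point is the mean level per length over the 3 sham libraries (TPM, log axis) of a marker gene with a count, grouped by cell type list, with a horizontal bar at the median of the list. Astrocyte markers have the highest median (738 TPM), microglial markers stand at 48.4 TPM and the list for other organs, which includes Tph2, at 0.406 TPM. The highest choroid plexus points are Ttr and, below it, Enpp2, and sham replicate 2 sets both.

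Ion pumping and energy metabolism were also prominent. Ion pumps took 1.46%, 1.42% and 1.44% of counts with 19 genes, and Atp1b1 was highest per length at 2700 ± 26.2 TPM. Enzymes of glycolysis and the TCA cycle took 1.17%, 1.17% and 1.22% with 30 genes, led by Aldoa at 3182 ± 108.4 TPM. Nuclear genes of oxidative phosphorylation took 0.934%, 0.972% and 0.958% with 76 genes, 75 of them at 1 CPM or more. Cox8a, a small subunit of cytochrome oxidase, had their highest level at 1926 ± 25.7 TPM and 268.8, 269.9 and 275.1 CPM. The median member of that list stood at 246 TPM with a CV of 3%.

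Genes of protein synthesis varied as little. The translation factors took 0.757%, 0.770% and 0.761% of counts, with the elongation factors Eef1a1 at 3424 ± 102.2 TPM and Eef1a2, its neuronal form, at 2165 ± 104.2 TPM. Ribosomal proteins took 0.543%, 0.547% and 0.536% with 79 genes. Members with a count ran from 4000 TPM for Rplp1 to 0.288 TPM for Rpl30, Rpl26 was listed at 0, and 77 of 79 reached 1 CPM. A ribosome holds most of these proteins in equal numbers. Many of these genes have near-identical processed pseudogenes, and so do Gapdh, at 10.4, 9.33 and 11.9 CPM, and Ppia, at 4.65, 4.61 and 5.27 CPM, both common reference genes. How reads that match several copies were counted is not given in the sources used here, so levels of genes with near-identical copies are uncertain. The shares and ranks of lists that hold such genes are uncertain with them, the ribosomal and glycolytic lists included. Eno1 (0.130 CPM) and Atp6v0c (0.197 CPM), an ion pump gene, were lower still, and Ndufs5, on the oxidative phosphorylation list, was listed at 0. Of the reference genes, Actb had 1994, 1905 and 2044 CPM, Ywhaz 921.5, 873.8 and 899.6 CPM and Hprt 84.6, 89.8 and 88.2 CPM.

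Structural genes of the cytoskeleton took 1.62%, 1.54% and 1.62% of counts with 31 genes. Map1a and Map1b, long microtubule-associated proteins, ranked high by count with 2090 ± 138.4 and 1686 ± 111.6 CPM but stood at 755.4 ± 57.5 and 467.9 ± 35.1 TPM. Actb averaged 3250 ± 134.9 TPM and Tmsb4x, which binds actin monomers, 1788 ± 53.0 TPM.

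**Figure D3:**
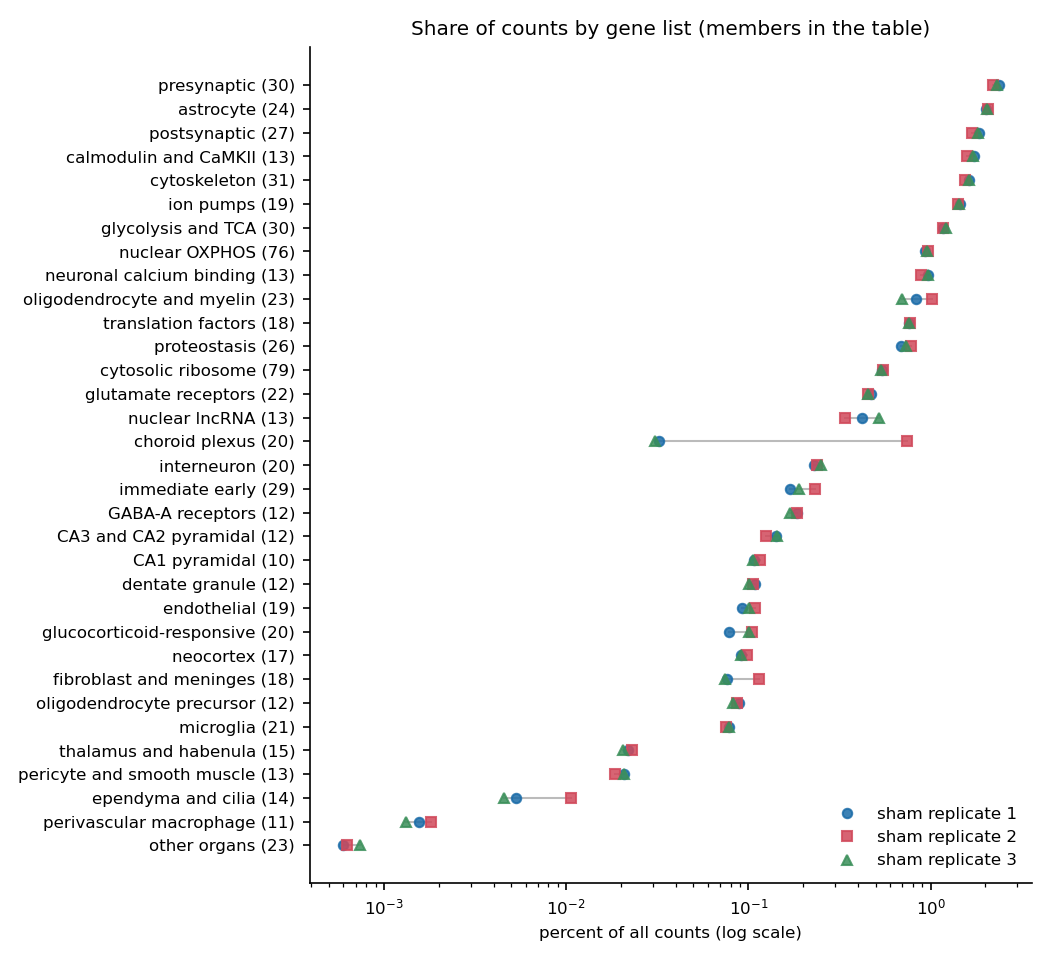
Each row shows the percent of all counts (log axis) taken by a gene list in each of the 3 sham libraries, with the number of list members in the table in brackets and a line from the lowest to the highest library. Synaptic, astrocyte and calmodulin lists lie between 1.58% and 2.38% with overlapping or adjacent symbols, whereas choroid plexus runs from 0.0309% to 0.746%.

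Protein-coding genes held 98.5% of counts in each library. Intergenic long noncoding RNAs held 0.481%, 0.415% and 0.545%. Meg3 (maternally expressed gene, an imprinted RNA) made up much of this with 1725, 1386 and 2380 CPM, a CV of 27.6%, the widest among the 30 highest genes. It was highest in replicate 3 and lowest in replicate 2. Snhg11, which the gene models class as protein-coding, kept that order with 899.2, 718.6 and 1178 CPM. So did Miat, with 506.5, 348.9 and 563.3 CPM, though 30.4% of its exonic bases overlap another gene. Others were steady: 2900097C17Rik, the second intergenic RNA by count, had 927.3, 924.6 and 894 CPM, and Peg13 331.5, 323.5 and 311.1 CPM. Malat1, a nuclear speckle RNA, had 269.8, 169.0 and 262.0 CPM, and Rian, which is transcribed from the same imprinted region as Meg3, 279.7, 281.5 and 347.8 CPM. Neat1, the RNA of paraspeckles, was lowest in replicate 3 with 100.9, 99.2 and 75.8 CPM. Rn45s, the precursor of ribosomal RNA, had 1817, 2219 and 1614 CPM although polyadenylated RNA was selected. It ranked 24th, and neither its length nor its place in the genome was matched.

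Spread between the libraries depended on the level. The median CV was 14.3% for entries with a mean of 1 to 10 CPM, 6.88% for 10 to 100 CPM, 4.81% for 100 to 1000 CPM and 4.69% above. Counting error alone would give medians of 9.50%, 3.35%, 1.42% and 0.488%, all of them below the spread measured. The common biological coefficient of variation, the spread beyond counting error that edgeR estimated over 14508 genes, was 12.4% with all 3 libraries and 8.21% without replicate 2. A CV over 50% was found for 184 entries of at least 1 CPM, or 1.32%. The highest library was replicate 2 in 166 of them, replicate 1 in 10 and replicate 3 in 8. Without replicate 2, 74 entries of at least 1 CPM had a CV over 50%.

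**Figure D4:**
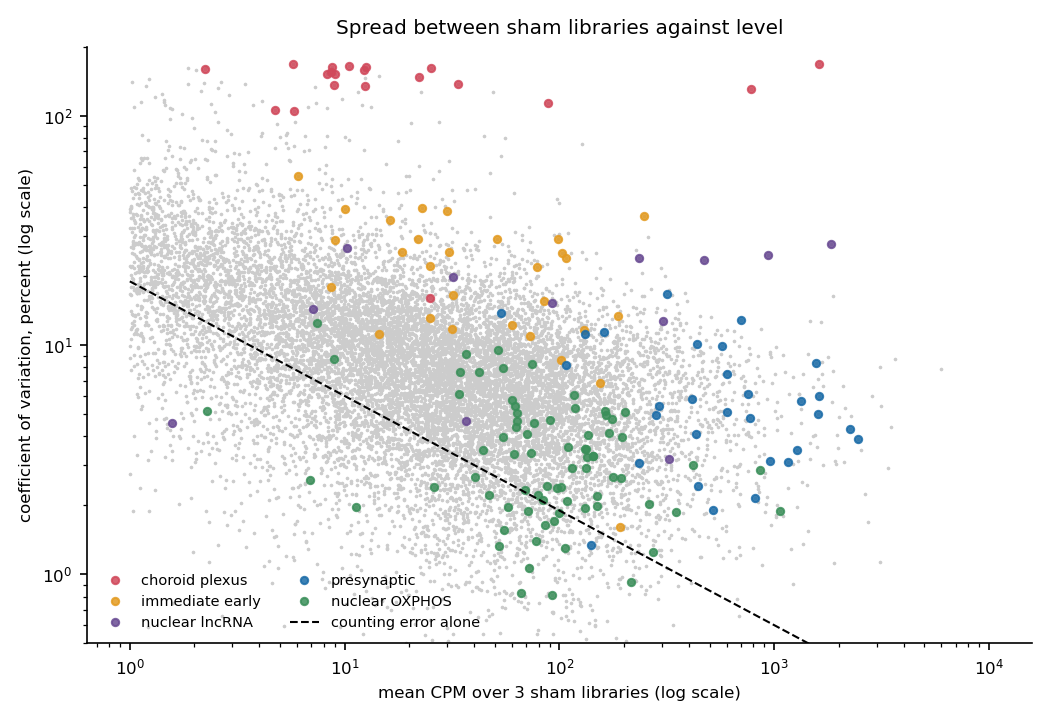
The CV over the 3 sham libraries (percent, log axis) is plotted against mean CPM (log axis) for every entry of at least 1 CPM in grey, with members of 5 gene lists in colour and the dashed line giving the CV that counting error alone would produce. Most choroid plexus genes lie around 100% and above, immediate early and long noncoding genes mostly between 10% and 40%, and presynaptic and oxidative phosphorylation genes mostly below 10%.

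Replicate 2 was at least 1.5-fold above both other libraries in 89 of the 10083 entries of at least 10 CPM (0.883%), against 2 entries (0.0198%) for replicate 1 and 11 (0.109%) for replicate 3. Of the 89, 15 are on the choroid plexus, ependyma or meningeal fibroblast lists. These lists hold 20, 14 and 18 genes of any level, and how many are among the 10083 entries was not counted. F5, coagulation factor V, had 1.41, 72.6 and 1.91 CPM, Kcne2, a potassium channel subunit, 0.468, 30.6 and 0.446 CPM, and Kl, the hormone co-receptor klotho, 29.5, 203.8 and 31.0 CPM. All are genes of choroid plexus epithelium. Foxj1, the master factor of motile cilia, had 13.5, 32.4 and 13.7 CPM, and 13 of 13 ependymal genes of at least 1 CPM were highest in replicate 2, against 40.1% of all entries of at least 1 CPM. Igf2, a growth factor of meninges and choroid plexus, had 74.1, 237.3 and 69.0 CPM, with 64.5% of its exonic bases shared with another gene. The part of choroid plexus tissue in the other entries of the 89 was not tested.

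Activity-induced genes also stood high in replicate 2. Immediate early genes took 0.169%, 0.232% and 0.189% of counts, and 26 of 29 were highest in replicate 2, against 40.1% of all entries of at least 1 CPM, while 19 of 29 were lowest in replicate 1, against 35.1%. Arc, which neurons make after synaptic activity, had 170.7, 346.7 and 222.0 CPM, with replicate 2 above both others. Fos, whose promoter window is shown above, had 21.7, 43.2 and 25.2 CPM, and Egr1, a zinc finger factor, 227.7, 344.9 and 200.4 CPM. Jun (158.2, 196.0 and 205.2 CPM) and Jund (189.1, 195.2 and 191.6 CPM) differed from this order or barely varied, and Npas4, a neuron-specific factor, was low in replicate 3 with 20.4, 21.9 and 13.1 CPM. The choroid plexus markers were highest in the same library, and their part in this was not tested.

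Some genes were low in replicate 1, about as many as in replicate 3 (22 entries, 0.218%). Replicate 1 was at least 1.5-fold below both other libraries in 21 of 10083 entries (0.208%). These include Sgk1, a kinase that glucocorticoids induce, with 50.04, 131.1 and 111.8 CPM, the clock gene Per1 with 73.5, 122.3 and 113.0 CPM, and Tsc22d3, another glucocorticoid-induced gene, with 39.8, 73.6 and 72.8 CPM. Across the glucocorticoid-responsive list, 15 of 19 genes of at least 1 CPM were lowest in replicate 1, where 35.1% of all entries were lowest, and the list took 0.0787%, 0.105% and 0.101% of counts. The median log2 difference from the 3-library mean over the list was -0.36, 0.15 and 0.14, against -0.02, 0.01 and -0.00301 over all entries of at least 1 CPM. Of 11 heat shock genes, 10 were lowest in replicate 1 and 10 were highest in replicate 2, with a median log2 difference of -0.19, 0.17 and 0.00431, and with the inducible chaperone genes Hspa1a at 8.74, 22.6 and 13.7 CPM and Dnajb1 at 46.6, 87.3 and 67.7 CPM. Hspa1a and Hspa1b are near-identical copies, so their split is uncertain. The wider list of protein folding and turnover, which shares genes with the heat shock list, had 19 of 26 members lowest in replicate 1 and 18 highest in replicate 2. For both lists the shares over all entries of at least 1 CPM were 35.1% lowest in replicate 1 and 40.1% highest in replicate 2.

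Replicate 3 was at least 1.5-fold below both other libraries in 22 entries (0.218%). Among them were Erbb4, a receptor of interneurons, with 21, 22.1 and 12.2 CPM, and Opalin, a myelin gene, with 30.7, 23.4 and 15.2 CPM. Transcript length moved with this library in a small way. Among genes with the longest transcripts (5744 bases or more, 2007 genes of at least 10 CPM), the median log2 difference from the 3-library mean was -0.04 in replicate 3 and 0.01 and 0.02 in replicates 1 and 2. Among the genes with the shortest transcripts (2230 bases or fewer, 2009 genes) it was 0.02 in replicate 3 and -0.02 and 0.00102 in replicates 1 and 2. Replicate 1 thus moved with length in the opposite direction. The part of length in single genes was not tested.

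**Figure D5:**
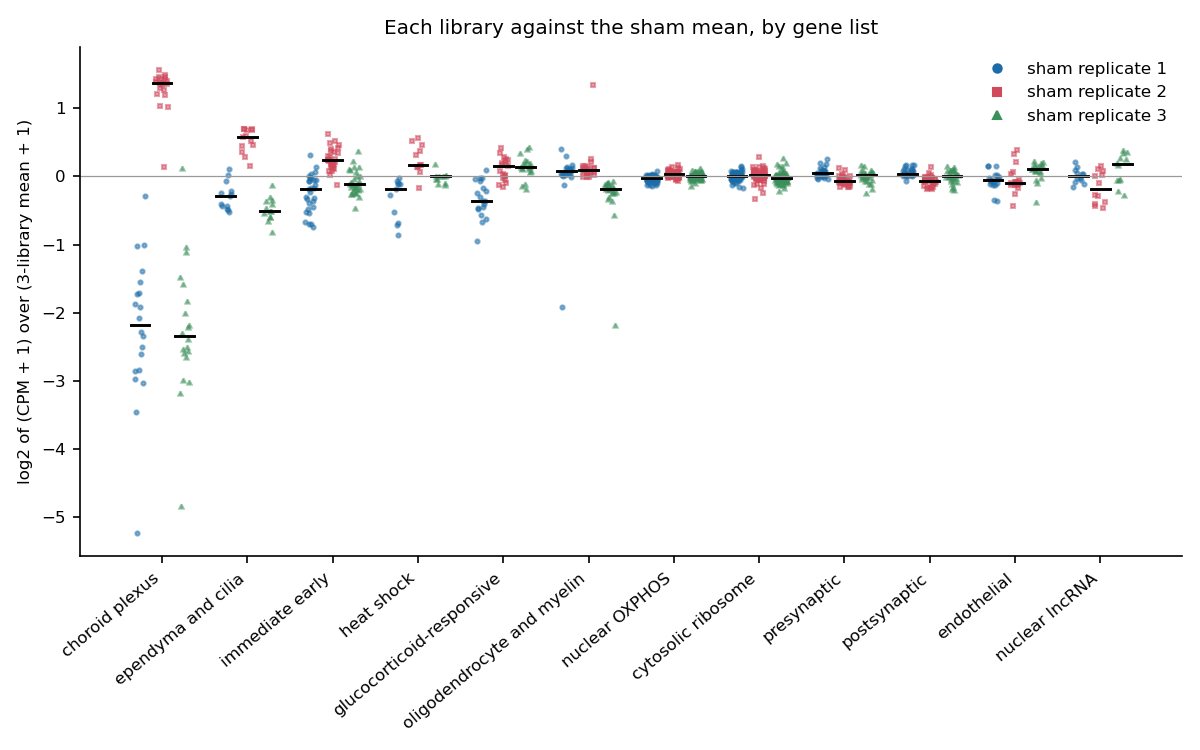
Each point is a list member with a mean of at least 1 CPM, plotted as log2 of its CPM + 1 in a library over the 3-library mean + 1, for 12 gene lists, with symbols for the 3 sham libraries and bars at the list medians. Choroid plexus members lie above the mean in replicate 2 (median 1.37) and below it in replicates 1 and 3 (medians -2.18 and -2.34); ependymal, immediate early and glucocorticoid-responsive lists separate less, and oxidative phosphorylation and ribosomal lists stay near 0.

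The share of entries with a CV under 5% rose with level. It was 10.1% at a mean of 1 to 10 CPM, 33.0% at 10 to 100, 52.0% at 100 to 1000 and 54.9% above. Bpgm, Dynll2, Brd2 and Rpl8 were among the 10 genes with the smallest CVs at 10 CPM or more. Among entries of at least 10 CPM, Bpgm, an enzyme of red cell and brain glycolysis, had 60.9 CPM in all 3 libraries, with a CV of 0.0278%. Dynll2, a dynein light chain, had 517.9, 519.4 and 518.5 CPM, Brd2, a chromatin reader, 256.7, 256.6 and 257.2 CPM, and Rpl8 270.9, 270.2 and 270.1 CPM. These spreads lie below what counting error alone would give at such counts, a CV of 2.43% for Bpgm and 0.834% for Dynll2, so that the order of the steadiest genes is not resolved by 3 libraries. Among the 30 highest genes, Atp1b1 had the smallest CV, at 1.12%.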

How the data were processed

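Polyadenylated hippocampal RNA was measured in 9 libraries, of which the 3 labelled sham were analysed. The authors deposited unnormalized counts of reads, with a row for each gene symbol. STAR, DESeq2 and mm10 are named in the submitters' processing notes; their versions, the counting step, its strand setting and its gene models are likewise not given in the sources used here, so reads of overlapping or antisense genes cannot be separated. The table has 0 columns of no sample. Of 24421 entries, 27 carry a date where a symbol belongs (0.317% to 0.322% of counts). These entries stay in the totals.

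CPM was computed from column totals (24.7 to 35 M counts), the share of counts being limited by counting error at 3 counts, 0.0858 to 0.122 CPM. TPM used the union of exons in GENCODE M21 (GRCm38), to which 24002 entries were matched, 644 by an older symbol; entries without a length hold 0.62% of counts. The common biological coefficient of variation came from edgeR 4.0.16 (R 4.3.3, TMM, filterByExpr with a minimum count of 10, no covariate), tested on simulated data. CVs are over the 3 libraries. No test between groups was made, and with 3 libraries an exact paired test cannot give a p under 0.25. Promoter windows are from RefSeq. Tables and figures used Python 3.11.15, pandas 2.3.3 and matplotlib 3.10.9.

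Genes were named by rule: the 30 highest by CPM, the 20 highest by TPM, the 3 highest of each list or all of a short list, the 20 largest and 10 smallest CVs at 10 CPM or more, the defining markers, and the 2 highest of each biotype. A few genes that meet it are left out of the text and plots. Genes outside it were chosen after their values were seen: Syt1, Vamp2, Syn3, Dlg4, Grin2b, Gabra5, Nr3c1, Mki67, Dcx, Gfap, Cnp, C1qa, Cldn5, Fam214a, Rreb1, Cox8a, Rpl26, Ndufs5, Rpl30, Eno1, Atp6v0c, Tmsb4x, Fos, Egr1, Npas4, Tsc22d3, Hspa1a, Hspa1b, Dnajb1, Erbb4 and Opalin. The members, the 53 gene lists (957 genes, 933 in the table) and the settings were chosen with earlier results of these data known. Lists share genes. Alternatives were TMM or median-of-ratios scaling, other detection and filter levels, the longest transcript as gene length, totals without ribosomal RNA, DESeq2 1.42.0 dispersions and leaving out each library.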

Additional observations from a re-analysis of the deposited data

How the results depend on the processing

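No paired analysis was possible because the values describe a single group and no test between groups was made. The count of entries with a CV over 50% depended on the level required: 184 at a mean of 1 CPM, 37 at 10 CPM and 641 at 0.2 CPM. It ran from 74 (without replicate 2) to 270 (without replicate 1) when a library was left out. The common biological coefficient of variation ran from 8.21% (without replicate 2) to 14.2% and was 10.2% as the median DESeq2 dispersion; without a filter it was 13.1%. The share of the 100 highest entries ran from 15.9% to 16.0% when a library was left out and was 15.8% on totals without ribosomal RNA. Entries detected in every library numbered 14307 at 0.5 CPM and 11318 at 5 CPM. With the longest transcript as gene length, 62 genes were shared by the 100 highest by CPM and by TPM. In TPM, 192 of 289 named genes moved by over 1 SD. Counted separately, 23 named genes moved by over 1.5 times. Without replicate 2, 27 named genes moved by over 1.5 times in CPM, chiefly choroid plexus genes, and the choroid plexus share was 0.0317%. As settings chosen after seeing the data, the myelin share was 0.772% without Enpp2, against 0.850%, 158 entries had a CV over 50% without the choroid plexus and ependyma lists, and the median CV of entries of at least 10 CPM was 4.73% without replicate 2, against 6.34%. Neither TMM nor median-of-ratios scaling moved a named gene's CPM by over 1.5 times. Depth sets a floor of about 0.1 CPM, and the spread of 3 samples is itself known only roughly.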

Other observations

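Transcription factors of the forebrain took 0.478%, 0.440% and 0.447% of counts with 23 genes, led by Tcf4, a basic helix-loop-helix factor, with 694.3, 676.3 and 686.3 CPM. Zbtb18, a repressor needed for cortical neurons, had 686.4, 552.9 and 578.3 CPM, with replicate 1 above both others. Clock genes took 0.145%, 0.156% and 0.165% with 17 genes. Tef, an output factor of the clock, led them with 319.2, 317.8 and 397.2 CPM and was highest in replicate 3. The clock repressor Cry2 stayed at 151.3, 149.0 and 146.5 CPM.

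MHC class I and its loading genes took 0.0171%, 0.0186% and 0.0161% of counts with 9 genes and had a median of 12.2 TPM, against 13.5 TPM over all entries with a count. Of them, B2m, the light chain, reached 443.2 ± 24.4 TPM. Interferon-stimulated genes had a lower median, 4.76 TPM over 16 genes. Variant histones, which are made outside S phase and polyadenylated, had a median of 92.2 TPM over 8 genes, against 17.1 TPM over the 9 replication-dependent histone genes with a count. The other 3 of the 12 replication-dependent genes were at 0. Polyadenylated RNA was selected, so a difference in expression cannot be told apart from this selection.

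Among the 27 entries that carry a date, the highest had 767.9, 735.6 and 815.2 CPM, a mean that ranks 126th of all entries, so well-expressed genes are in the totals without a name. Of the 933 list genes in the table, 13 were listed at 0 in all 3 sham libraries.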
